A study of Mus musculus with 8 samples.

Results

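The D-type cyclin genes Ccnd1, Ccnd2 and Ccnd3, the kinase genes Cdk4 and Cdk6, the CDK inhibitor genes Cdkn1b, Cdkn2c and Cdkn2d, and the pocket protein genes Rb1 and Rbl2 were followed in haematopoietic stem cells that had lost Kdm4a, Kdm4b and Kdm4c. These 10 genes were taken by symbol from a table of 24222 genes, as regulators of entry into the cell cycle and of quiescence, and all 10 had enough reads to be among the 11498 genes tested. The libraries came from 4 Kdm4a/b/c triple knockout (KO) mice and 4 wild-type (WT) control mice of strain C57BL6, with knockout induced 2 weeks earlier. The stem cells, from which all blood cells arise, were sorted from bone marrow by flow cytometry, and each mouse gave 1 RNA-seq library. How the knockout was induced, whether the WT mice had the same treatment, which gate was used, and the age and sex of the mice are not given in the labels. Kdm4a, Kdm4b and Kdm4c encode demethylases that remove methyl groups from lysines of histone H3.

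A stem cell that rests outside the cycle must pass through the G1 phase before it can copy its DNA. D cyclins, which growth signals induce, join CDK4 or CDK6, and the complexes phosphorylate the retinoblastoma protein and its relatives, the pocket proteins, which otherwise hold E2F transcription factors in check. The INK4 inhibitors p18 (Cdkn2c) and p19 (Cdkn2d) bind CDK4 and CDK6 and keep D cyclins from joining them, while p27 (Cdkn1b), an inhibitor of the CIP/KIP family, blocks the cyclin E and CDK2 complexes that act next. In mouse marrow, stem cells spend most of their time out of cycle, and CDK6, p18 and p27 are each known to set how readily stem or progenitor cells leave that state. Much of this control acts on the proteins, through phosphorylation, binding and destruction, which RNA counts do not measure. The share of the sorted cells that was resting was not measured either.

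None of the 10 genes passed the test between KO and WT. The median log2 fold change over the 10 was 0.06 and that over all genes tested was 0.002. With the edgeR quasi-likelihood test, adjusted over all genes by Benjamini and Hochberg, 0 were higher and 0 lower at an adjusted p under 0.05, where 0.583% of all genes tested were called, 0.252% as higher and 0.33% as lower. The adjusted p-values of the 10 lay between 0.366 and 0.989. At an unadjusted p under 0.05, Rb1 was the 1 gene of the 10, against 11.2% of all genes tested, and DESeq2 called 0 of the 10 and limma voom 0. In none of the 10 were the KO and WT libraries free of overlap, against 5.81% of all genes, 2.88% with KO higher and 2.93% with KO lower. All 10 of the 95% intervals of the fold lay within 2-fold in either direction, running from 0.586-fold to 1.82-fold at the outside. For Ccnd1, Ccnd2, Cdk4 and Rbl2 they also lay within 1.5-fold. These intervals are for each gene alone and describe RNA in the sorted cells as a whole. In such bulk libraries fewer cells that express a gene and less RNA per cell cannot be told apart.

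**Figure D1:**
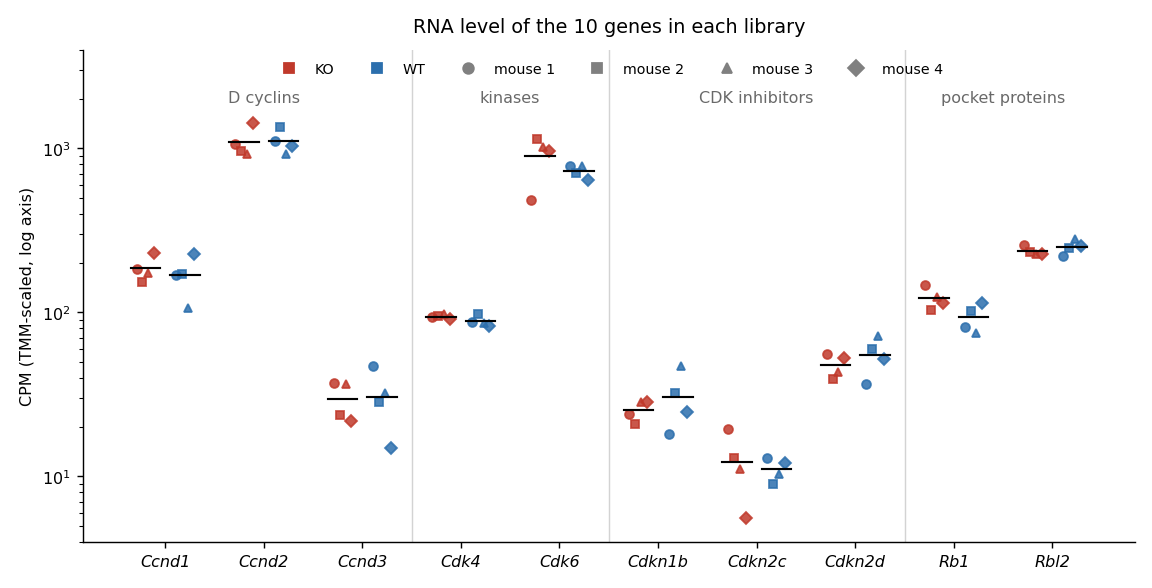
Level of each of the 10 genes in every library, in CPM on a log axis, with KO left of WT for each gene. Marker shapes give the mouse number, which does not pair KO with WT mice, and bars are means of 4 libraries. KO and WT libraries overlap for every gene, and KO mouse 1 stands below the other 7 libraries for Cdk6.

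**Figure D2:**
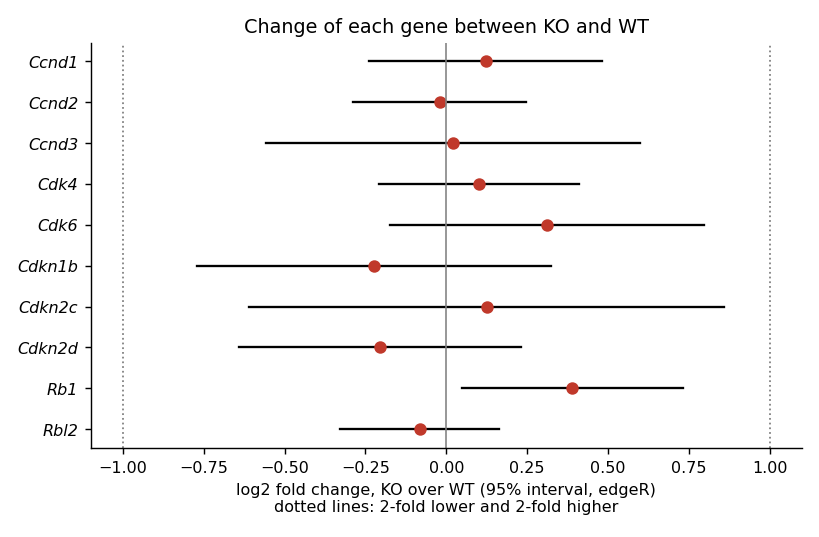
Log2 fold change of each gene, KO over WT, with its 95% interval from edgeR's fit of 8 libraries. Dotted lines mark 2-fold lower and 2-fold higher, and every interval ends inside them. The interval of Rb1 is the 1 of 10 that leaves out no change.

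Total counts ran from 5541504 to 14872493 per KO library and from 3594315 to 6044289 per WT library, and KO mice 1 to 3 had more counts than any WT library. Kdm4a, Kdm4b and Kdm4c each had less RNA in every KO library than in any WT library, and Kdm4c, which passed the test, was at 36.0 ± 10.6 CPM in KO and 115 ± 22.7 CPM in WT (SD, n = 4 each). CPM are counts scaled to a common library total, with TMM factors applied. Genes used here as markers of the labelled cell type were present, which does not give the share of cells that were stem cells or resting. Those of haematopoietic stem cells (Kit, Ly6a, Slamf1, Procr, Mecom, Hlf, Tek and Fgd5), all 8 tested and none of them called, summed to between 2649 and 2884 CPM in KO and between 3030 and 3399 CPM in WT, so the summed level was lower in every KO library. Most of that sum was Kit and Hlf. Of the 8 markers, 6 were fitted below 1-fold and 2 above. Mecom (log2 fold change -0.43, adjusted p = 0.106) and Kit (-0.30, adjusted p = 0.22 by edgeR) had every KO library below every WT library. Ly6a, the marker with the smallest p, stood the other way, at 81.0 ± 6.52 CPM in KO and 47.9 ± 14.1 CPM in WT. Every KO library of Ly6a was above every WT library (log2 fold change 0.72, adjusted p = 0.0967 by edgeR), and Tek had a fitted log2 fold change of 0.17. Flt3 and Cd48, known from progenitors that are leaving the stem cell pool, reached at most 7.99 CPM in a KO library and at most 12.1 CPM in a WT library. Cd34, the other progenitor marker counted, ran from 76.2 to 85.8 CPM in KO and from 74.1 to 96.0 CPM in WT. Of other cell types, the macrophage markers, of which 2 were tested, summed to 3.40 to 7.43 CPM in KO and 10.6 to 20.6 CPM in WT, with Mrc1 called lower. The 3 megakaryocyte markers summed to 235.2 to 252 CPM in KO and 136 to 178 CPM in WT, with Gp1ba and Itga2b called higher. The third of these, Pf4, had a lower mean in KO, 49.3 ± 8.32 CPM, than in WT, 66.1 ± 9.92 CPM (SD, n = 4 each), and was not called (log2 fold change -0.43, adjusted p = 0.376 by edgeR). The summed ranges of neutrophil and monocyte, lymphoid, erythroid, mast cell and stromal markers overlapped between KO and WT. Of the 8 erythroid markers, 4, all haemoglobin genes, were at 0 throughout. Whether reads that match several alike genes were counted was not checked, so these 0 values do not show that red cell RNA was absent. The part of the marker shifts above in the values below was not tested.

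The D cyclins were dominated by Ccnd2. Cyclin D2 is known as a target of growth factor and cytokine signals in blood cells. By CPM, which is not scaled by gene length, 0.452% of the genes tested stood higher than Ccnd2. Ccnd2 (chromosome 6, 127125162 to 127152193, minus strand, mm10) had 1066, 959.8, 922 and 1428 CPM in KO mice 1 to 4, against 1115, 1359, 929.6 and 1034 CPM in WT mice 1 to 4. KO mouse 4 and WT mouse 2 were the high libraries, and the ranges of KO and WT almost coincided. The fitted log2 fold change was -0.02 (SE 0.13), with a 95% interval of 0.819-fold to 1.19-fold (adjusted p = 0.976 by edgeR).

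Ccnd1 (chromosome 7, 144929931 to 144939925, minus strand), which encodes cyclin D1, had 183, 152, 175 and 230.4 CPM in KO mice 1 to 4, against 169, 170.3, 106 and 228 CPM in WT mice 1 to 4. WT mouse 3 was low, and the highest library of each genotype was mouse 4. Its log2 fold change was 0.12 (SE 0.17), with a 95% interval of 0.847-fold to 1.4-fold (adjusted p = 0.868 by edgeR). Without WT mouse 3 the value was -0.05, so the sign rested on that library.

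Ccnd3 (chromosome 17, 47505051 to 47599691, plus strand), the gene of cyclin D3, which in mice is best known from developing lymphocytes and red cell precursors, was the least abundant of the D cyclins. It had 36.9, 23.6, 36.8 and 21.9 CPM in KO mice 1 to 4, against 46.8, 28.3, 32.1 and 14.8 CPM in WT mice 1 to 4. The WT libraries spread 3.15-fold from lowest to highest and the KO libraries 1.68-fold, all within the WT range. The log2 fold change of 0.02 (SE 0.28, adjusted p = 0.989 by edgeR) turned negative with DESeq2, in 9 of 11 random draws of counts thinned to equal depth, and without WT mouse 2, WT mouse 4, KO mouse 1 or KO mouse 3.

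Levels of different genes can be compared only per length, so CPM were divided by the kilobases of annotated exon. On this scale of level per length, Ccnd2 made up 73.0% ± 2.01 of the D cyclin RNA in KO libraries and 75.1% ± 4.81 in WT libraries (SD, n = 4 each). Ccnd1 made up 24.8% ± 1.32 in KO and 22.6% ± 5.41 in WT, and Ccnd3 2.22% ± 0.793 in KO and 2.27% ± 1.05 in WT. The ranges of all 3 shares overlapped between KO and WT. Such shares, here and below, depend on the exon length used. With the longest transcript as length, the KO means per kilobase changed. Ccnd3 went from 3.40 to 7.72 CPM, Ccnd2 from 116 to 173 and Ccnd1 from 39.3 to 49.5. Ccnd2 stood over Ccnd3 by 5.21 ± 0.611 on the log2 scale of CPM in KO and 5.28 ± 0.701 in WT, and the difference of -0.07 was within the spread (exact two-sided permutation p = 0.857, n = 4 against 4).

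The kinase pair differed in how steady it was. Cdk4 (chromosome 10, 127063534 to 127067920, plus strand) was the most even of the 10 genes among KO libraries, with 93.6, 95.4, 97.1 and 90.8 CPM in KO mice 1 to 4, against 87.4, 97.3, 86.6 and 82.9 CPM in WT mice 1 to 4. The coefficient of variation was 2.85% in KO and 6.97% in WT. KO over WT, Cdk4 had a log2 fold change of 0.10 (SE 0.15), with a 95% interval of 0.866-fold to 1.33-fold (adjusted p = 0.875 by edgeR).

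Cdk6 (chromosome 5, 3341485 to 3531008, plus strand), the more abundant of the kinase pair, split the KO libraries. It had 482, 1138, 1023 and 963 CPM in KO mice 1 to 4, against 777, 707, 782 and 640.1 CPM in WT mice 1 to 4. KO mice 2, 3 and 4 were above every WT library, and KO mouse 1 was below every WT library. The counts behind these values were 3370 reads in KO mouse 1 and at least 2526 in any library. These are reads of amplified RNA, so counting error is a lower limit on error. The part of amplification in the split was not tested. Over 8 libraries the log2 fold change was 0.31 (SE 0.22), with a 95% interval of 0.887-fold to 1.74-fold (adjusted p = 0.663 by edgeR). Without KO mouse 1 it was 0.52 and passed the test (adjusted p = 0.0161 by edgeR), and Cdk6 was then the 1 of the 10 genes called. With any other library left out the adjusted p was between 0.71 and 0.828 by edgeR. No label sets KO mouse 1 apart, so the value over 8 libraries stands as the result and the call without it as a dependence on that library.

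The ratio of Cdk6 to Cdk4 showed the same split free of library scaling. Its log2 value in CPM was 2.36, 3.58, 3.40 and 3.40 in KO mice 1 to 4, against 3.15, 2.86, 3.17 and 2.95 in WT mice 1 to 4. The mean was 3.19 ± 0.555 in KO and 3.03 ± 0.155 in WT, a difference of 0.15 (exact two-sided permutation p = 0.686, n = 4 against 4, where the smallest possible p is 0.0286; adjusted over 4 ratios, 0.857). Per length, Cdk6 was 54.4% of the Cdk4 and Cdk6 RNA in KO mouse 1 and 71% to 73.5% in the other KO mice, against 62.8% to 67.7% in WT mice. The KO mean share was 67.5% ± 8.79 and the WT mean 65.5% ± 2.43.

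KO mouse 1 also stood apart in other genes of the cycle. Among the 8 libraries it had the most Rb1 and the most Cdkn2c. It also had the highest summed CPM of the S phase list (3567, against 2250 to 2958 in the other libraries) and of the mitotic list (5213, against 2978 to 3921). Mki67, the gene of the Ki-67 proliferation antigen, ranked 18 of the 11498 genes tested by mean CPM over the 8 libraries, without scaling by length. It was at 2956 CPM in KO mouse 1, at 2029, 2028 and 1953 CPM in KO mice 2 to 4, and at 1574 to 2135 CPM in WT mice. The share of the ribosomal RNA precursor Rn45s was 2.49% in this library and 2.37% to 3.93% in the other KO libraries, and its total count of 7059382 was within the range of the other libraries. The part of any of these in the low Cdk6 value was not tested.

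**Figure D3:**
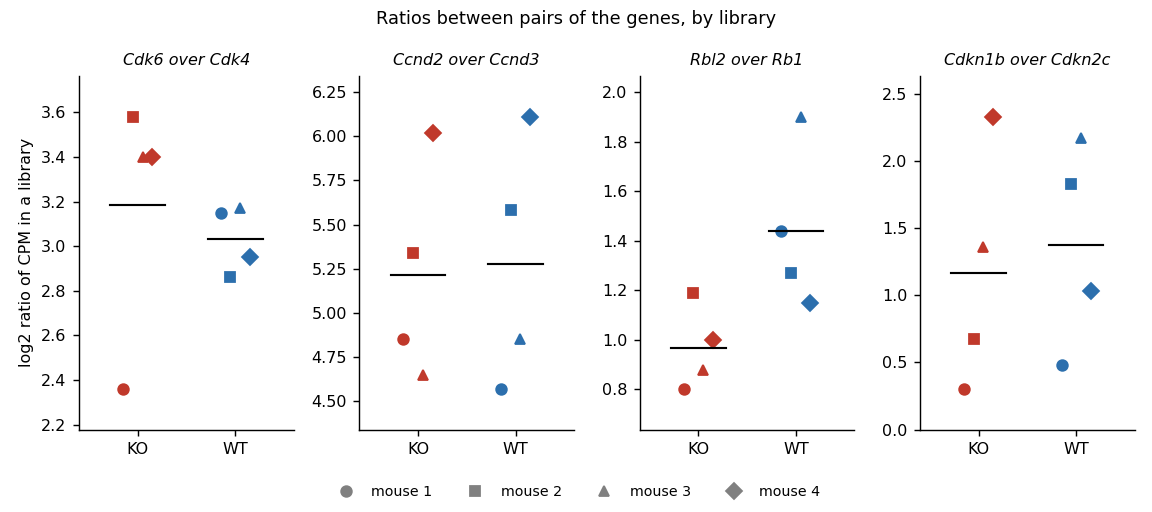
Log2 ratio of CPM between pairs of the genes in each library, KO left of WT, with bars at the mean of 4 libraries; each panel has its own axis. KO mouse 1 lies at 2.36 for Cdk6 over Cdk4, below the other 7 libraries. For Rbl2 over Rb1 the KO libraries lie at 0.80 to 1.19 and the WT libraries at 1.15 to 1.90, with a narrow overlap.

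The inhibitors Cdkn1b and Cdkn2d were at slightly lower mean levels in KO, within the spread of the mice. Cdkn1b (chromosome 6, 134920401 to 134925513, plus strand), which encodes p27, had 24.2, 20.8, 28.4 and 28.4 CPM in KO mice 1 to 4, against 18.2, 32.2, 47.0 and 24.9 CPM in WT mice 1 to 4. All KO values fell inside the WT range, whose upper end was WT mouse 3. Cdkn1b had a log2 fold change of -0.22 (SE 0.27), with a 95% interval of 0.586-fold to 1.25-fold (adjusted p = 0.824 by edgeR), and 0.08 without WT mouse 3.

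Cdkn2d (chromosome 9, 21288410 to 21291407, minus strand), which encodes p19 of the INK4 family, had 55.7, 39.5, 43.1 and 52.7 CPM in KO mice 1 to 4, against 36.4, 59.9, 72.1 and 51.8 CPM in WT mice 1 to 4. WT mice 1 and 3 marked the lower and upper ends, as they did for Cdkn1b, and the KO libraries lay between them. Its log2 fold change was -0.21 (SE 0.21), with a 95% interval of 0.641-fold to 1.17-fold (adjusted p = 0.786 by edgeR).

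Cdkn2c (chromosome 4, 109660876 to 109667189, minus strand), which encodes p18 and whose loss is known to expand the stem cell pool in mice, varied most among KO mice. It had 19.6, 13.0, 11.0 and 5.57 CPM in KO mice 1 to 4, against 13.0, 8.95, 10.4 and 12.1 CPM in WT mice 1 to 4. KO mice 1 and 4 were the highest and lowest of the 8 libraries, 3.52-fold apart, while the WT libraries were within 1.45-fold of each other. The KO mouse 4 value rested on 30 reads and the WT mouse 2 value on 32. Its log2 fold change was 0.13 (SE 0.36), with the widest 95% interval of the 10 genes, 0.655-fold to 1.82-fold (adjusted p = 0.945 by edgeR). It was -0.13 without KO mouse 1 and -0.03 with limma voom.

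Per length, Cdkn2d made up most of the RNA of these 3 inhibitors, 74.8% ± 3.59 in KO and 76.0% ± 2.61 in WT (SD, n = 4 each). Cdkn1b made up 13.9% ± 2.34 in KO and 14.3% ± 2.18 in WT, and Cdkn2c 11.3% ± 4.58 in KO and 9.74% ± 4.03 in WT. The log2 ratio of Cdkn1b to Cdkn2c in CPM ran from 0.302 to 2.33 in KO and from 0.483 to 2.17 in WT, a difference in means of -0.21 (exact two-sided permutation p = 0.714, n = 4 against 4). Mean CPM per kilobase of Cdkn2d were 30.3 in KO and 35.0 in WT, beside those of Cdk4 at 29.0 in KO and 27.3 in WT. Per kilobase of the longest transcript the order turned, with Cdkn2d at 33.6 in KO and 38.7 in WT. Cdk4 was then at 45.9 in KO and 43.1 in WT.

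Of the pocket proteins, Rb1 had the largest log2 fold change of the 10 genes and that of Rbl2 was near 0. Rb1 (chromosome 14, 73183673 to 73325822, minus strand), the retinoblastoma gene, had 148, 103, 124 and 114 CPM in KO mice 1 to 4, against 81.7, 102, 74.8 and 115 CPM in WT mice 1 to 4. KO mice 1 and 3 were above every WT library, and KO mice 2 and 4 lay below WT mouse 4. The mean was 122 ± 19.1 CPM in KO and 93.4 ± 18.4 CPM in WT (SD, n = 4 each), a log2 fold change of 0.39 (SE 0.17) with a 95% interval of 1.04-fold to 1.66-fold. The unadjusted p of 0.0266 by edgeR became 0.366 after adjustment over all genes, the exact permutation p was 0.114, and 7.27% of all genes tested had a smaller p.

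Rbl2 (chromosome 8, 91070057 to 91123844, plus strand) encodes p130, the pocket protein that joins the DREAM complex, which silences cell cycle genes in resting cells. It had 258, 235, 227 and 227 CPM in KO mice 1 to 4, against 221, 247, 279.7 and 255 CPM in WT mice 1 to 4. The KO libraries all lay within the WT range. The log2 fold change was -0.08 (SE 0.12), the smallest SE of the 10 genes, with a 95% interval of 0.796-fold to 1.12-fold (adjusted p = 0.868 by edgeR).

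Rbl2 stood over Rb1 by 0.801, 1.19, 0.878 and 0.997 on the log2 scale of CPM in KO mice 1 to 4, against 1.44, 1.27, 1.90 and 1.15 in WT mice 1 to 4. KO mouse 2 lay just above WT mouse 4, and the other KO values were below every WT value. The difference of -0.47 gave an exact two-sided permutation p of 0.0571 with n = 4 against 4, or 0.229 adjusted over 4 ratios, so it did not pass. Per length, Rb1 was 39.2% ± 2.76 of the Rb1 and Rbl2 RNA in KO and 31.8% ± 4.79 in WT.

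On the level per length the order was nearly the same in both genotypes. Ccnd2 led, at 116 ± 24.5 CPM per kilobase in KO and 118 ± 19.4 in WT, and its libraries did not overlap those of the next gene, Cdk6, at 64.4 ± 20.7 in KO and 51.9 ± 4.80 in WT. Ccnd1, Cdkn2d, Rbl2 and Cdk4 followed at means of 29.0 to 39.3 in KO and 27.3 to 35.8 in WT, each overlapping its neighbour in the order, as Ccnd1 also did with Cdk6. Rb1 came next, at 20.3 ± 3.17 in KO and 15.5 ± 3.06 in WT, apart from its neighbours. Cdkn1b, Cdkn2c and Ccnd3 were lowest, at 3.40 to 5.59 in KO and 3.48 to 6.71 in WT, and overlapped each other in sequence. With the longest transcript in place of the union of exons, Ccnd2 and Cdk6 still led. On that scale Cdk4 stood above Cdkn2d in both genotypes, and Rbl2 above Ccnd1 in WT. Ccnd3 then moved above Cdkn1b and Cdkn2c, at 7.72 in KO and 7.91 in WT, its 21 annotated transcripts together spanning more exon than any of them holds.

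Part of the annotated exon of 7 of the 10 genes lies over exons of a gene on the other strand, and no source used here gives the strand setting of the counting, so reads there may have been shared or dropped. The overlap covers 23.4% of the exon length of Ccnd1, 21.0% of Rbl2, 19.7% of Cdk4, 14.9% of Rb1, 7.87% of Ccnd2, 4.11% of Ccnd3 and 2.63% of Cdk6. Beside Rb1, whose level was higher on average in KO, Lpar6 and Rcbtb2 on the other strand had log2 fold changes of -0.22 (adjusted p = 0.786) and -0.12 (adjusted p = 0.871 by edgeR). The noncoding gene 9330179D12Rik, antisense to Ccnd2 and described here after its values were seen, had 1.43, 8.07, 10.1 and 16.0 CPM in KO mice 1 to 4, against 0.867, 3.64, 3.33 and 3.87 CPM in WT mice 1 to 4. KO mouse 1 was again the low KO library, within the WT range. The log2 fold change was 1.61 (SE 0.58; by edgeR, unadjusted p = 0.00957 and adjusted p = 0.258), on 5 to 24 reads per WT library.

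After each genotype's mean was taken out, 45 pairs among the 10 were correlated over the 8 libraries, with exact permutation of the pairing within genotypes, and 0 passed after adjustment over the 45. The smallest p that 576 pairings allow is 0.00174, too large for a single pair to pass over 45 relations, so this count cannot show that the genes varied apart. Of the 45 pairs, Cdk6 and Rb1 had the lowest p (Pearson r = -0.725, exact permutation p = 0.00521, adjusted 0.234). Their Spearman rho was -0.69 (exact permutation p = 0.00694, adjusted 0.312). Without KO mice 1 and 2, the libraries farthest from the median of Cdk6, r was -0.667. The inhibitors Cdkn1b and Cdkn2d had the largest r (Pearson r = 0.865, exact permutation p = 0.0295, adjusted 0.664). Their Spearman rho was 0.714 (exact permutation p = 0.0903, adjusted 0.768). Without WT mice 1 and 3 their r was 0.492, so that value rested largely on those libraries. Cdkn2d and Rbl2 came next (Pearson r = 0.82, exact permutation p = 0.059, adjusted 0.885), with r at 0.379 without WT mice 1 and 3.

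Among 9578 other genes with a mean of at least 5 CPM and a settled symbol, the gene most like each of the 10 was found by Pearson correlation over the 8 libraries after the genotype means were taken out. For the D cyclins these were Ppp1r10 with Ccnd1, Idh3a with Ccnd2 and Nacc2 with Ccnd3. For the kinases and inhibitors they were Homer3 with Cdk4, Wash with Cdk6, Gpsm3 with Cdkn1b, Psma3 with Cdkn2c and Wbp4 with Cdkn2d. For the pocket proteins they were Ndufa2 with Rb1 and Rbm6 with Rbl2. The correlations, each the highest of 9578 over 8 libraries, ran from 0.967 to 0.989 and are a description only.

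Other genes of the same network were counted in 8 lists, and 0 of their genes passed edgeR's test over all genes in either direction. DESeq2 called 1, E2f4, and limma voom 0. At an unadjusted p under 0.05, 15 of the 79 genes tested in these lists had a higher and 2 a lower fitted value in KO, where 5.75% of all genes tested did so as higher and 5.45% as lower. With a library left out these counts ran from 11 to 17 higher and from 0 to 3 lower. Genes of a list may vary together across libraries, so gene counts here and below are not counts of independent observations. The CDK inhibitors outside the 10 were sparse. Cdkn2b was at 0 in every library, Cdkn2a had at most 1 read in any, and the 2 tested had fold changes of opposite sign. Cdkn1a, which encodes p21, was at 16.0, 9.34, 11.5 and 12.6 CPM in KO mice 1 to 4, against 4.51, 2.80, 7.44 and 7.58 CPM in WT mice 1 to 4. All KO libraries of Cdkn1a were above all WT libraries, which held for 2.88% of all genes tested. The WT libraries had 10 to 47 reads each. The log2 fold change of 1.06 (SE 0.39) did not pass (adjusted p = 0.28 by edgeR). Cdkn1c, which encodes p57 and is known to hold mouse stem cells in quiescence, was described after its values were seen and was at 12.7 ± 5.07 CPM in KO and 19.8 ± 2.18 CPM in WT (log2 fold change -0.65, SE 0.31, adjusted p = 0.424 by edgeR).

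Among 17 genes of the remaining pocket protein, the E2F factors and the DREAM complex, 13 (76.5%, against 50.2% of all genes tested) were fitted above 1-fold, and the median was 0.17 on the log2 scale. Without KO mouse 3 the 13 became 10. An unadjusted p under 0.05 was reached by 4 of these and by 0 of the genes fitted below 1-fold, against 5.75% and 5.45% of all genes tested. The summed CPM of the list ran from 1608 to 1900 in KO and from 1434 to 1592 in WT, without overlap. E2f4, which encodes an E2F that works with p130 to keep genes silent, had the smallest p of the list. It had 63.7, 66.7, 75.1 and 75.2 CPM in KO mice 1 to 4, against 45.4, 46.7, 45.6 and 47.4 CPM in WT mice 1 to 4. Every KO library was above every WT library, which held for 2.88% of all genes tested, at a log2 fold change of 0.60 (SE 0.18). It did not pass by edgeR (adjusted p = 0.138) and passed by DESeq2 (adjusted p = 0.0191).

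The 4 tested of 5 genes of the CDK2 cyclins and CDK2 were all fitted above 1-fold, against 50.2% of all genes tested. Their median was 0.41 on the log2 scale. With KO higher, 2 had an unadjusted p under 0.05, against 5.75% of all genes tested. Their summed CPM, with the gene not tested included, ran from 205.9 to 280.4 in KO and from 149.6 to 195.6 in WT, also without overlap. Most of that sum was Ccna2, at 174.8 ± 27.4 CPM in KO and 128.2 ± 18.9 CPM in WT (log2 fold change 0.42, adjusted p = 0.254 by edgeR). Ccne1, which encodes cyclin E1, had 4.00, 8.78, 18.1 and 4.83 CPM in KO mice 1 to 4, against 3.12, 1.12, 1.18 and 5.16 CPM in WT mice 1 to 4. WT mice 2 and 3 rested on 4 and 6 reads, and WT mouse 4 lay above KO mice 1 and 4. Its log2 fold change was 1.88 (SE 0.58, adjusted p = 0.165 by edgeR), and 1.04 without KO mouse 3 (unadjusted p = 0.0758 by edgeR). Without KO mouse 1 the median of the list was 0.282, with 3 of the 4 fitted above 1-fold. In the lists of CDK activation and cyclin D turnover and of p27 turnover, 5 of 9 genes each (55.6%) were fitted above 1-fold. In these lists 0 and 0 genes had an unadjusted p under 0.05, with medians of 0.05 and 0.10 on the log2 scale. Both medians depended on single libraries. The first was 0.0013 without WT mouse 4 and 0.189 without WT mouse 1, and moved by over 1.5 times when any library but KO mouse 3 was left out. The second was -0.00921 without WT mouse 3, 0.0047 without KO mouse 1 and 0.175 without WT mouse 1. The smallest p in these lists belonged to Ambra1, whose product targets D cyclins for destruction (log2 fold change 0.30, adjusted p = 0.584 by edgeR). The p27 list was led by Skp2, the F-box protein that targets p27 (0.27, adjusted p = 0.587 by edgeR).

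Of the 12 upstream regulators, among them Myc and the FoxO genes, 6 were fitted above 1-fold and 6 below, at a median of 0.04. An unadjusted p under 0.05 was reached by 2 with KO higher and 1 with KO lower, against 5.75% and 5.45% of all genes tested. With a library left out the median ran from -0.0581 without KO mouse 3 to 0.0779 without WT mouse 3, and it was also negative without WT mouse 1, at -0.0073. Max, the partner of Myc, led with 526 ± 90.6 CPM in KO and 397 ± 72.3 CPM in WT (log2 fold change 0.40, adjusted p = 0.206 by edgeR). All 15 E2F target and S phase genes were fitted above 1-fold, against 50.2% of all genes tested, at a median of 0.17 on the log2 scale. With KO higher, 3 had an unadjusted p under 0.05, against 5.75% of all genes tested. Mcm6, a subunit of the replicative helicase, was at 622 ± 94.3 CPM in KO and 474 ± 55.0 CPM in WT (adjusted p = 0.163 by edgeR). Of 11 genes of G2 and mitosis, 10 (90.9%, against 50.2% of all genes tested) were fitted above 1-fold, at a median of 0.30. An unadjusted p under 0.05 was reached by 3 of them, with KO higher, against 5.75% of all genes tested. Cenpe, a kinetochore motor gene, was at 387 ± 64.7 CPM in KO and 270.0 ± 52.6 CPM in WT (log2 fold change 0.51, adjusted p = 0.104 by edgeR). The summed CPM of the S phase and mitotic lists overlapped between KO and WT, with KO mouse 1 highest in each. Without KO mouse 1 the median of the mitotic list was 0.153, with 10 genes still fitted above 1-fold, and that of the S phase list 0.0979, with 12. Without WT mouse 3 the S phase median was 0.102, also with 12. Genes of the mitotic list at an unadjusted p under 0.05 numbered 1 without KO mouse 1, WT mouse 2 or WT mouse 3, and 6 without KO mouse 3.

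**Figure D4:**
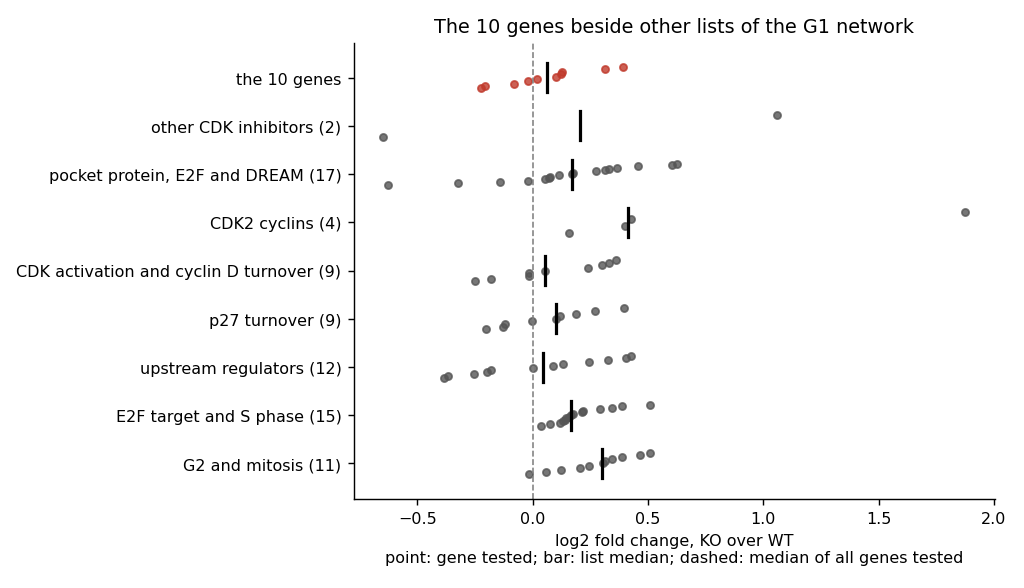
Log2 fold change, KO over WT, of the 10 genes and of the genes tested in 8 other lists of the network, with the number tested in brackets. Bars mark the medians, from 0.04 to 0.41 for the 8 lists and 0.06 for the 10 genes, and the dashed line the median of all genes tested. No gene shown passed edgeR's test over all genes.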

How the data were processed

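Per the labels' protocols, RNA from sorted cells was amplified with the Nugen Ovation system, sonicated and sequenced on an Illumina NextSeq. The authors mapped reads with STAR 2.4.0d-2 and deposited raw counts per gene symbol from htseq-count 0.6.1galaxy1; the build was mm10, per the submitters' processing notes. Amplification without molecular identifiers makes these counts of reads, not molecules, so counting error is a lower limit on error. The annotation used for counting is not given in the sources used here.

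Counts were analysed with edgeR 4.0.16 in R 4.3.3. The function filterByExpr (minimum count 10, minimum total 15) kept 11498 genes. TMM scaling and the robust quasi-likelihood test followed, with genotype as the only term, two-sided, and Benjamini-Hochberg adjustment over all genes (threshold 0.05). The SE is the log2 fold change over the square root of F, and the 95% interval uses its t quantile. Ratios used a prior count of 0.5. Coordinates and exon lengths are from GENCODE vM21 (mm10). Alternatives included DESeq2 1.42.0 and limma 3.58.1 voom with sample weights. The procedure was tested on simulated data, where the mean share of false calls lay somewhat above the threshold. Libraries of a genotype differed far beyond sampling noise, by a chi-square of at least 10.9 per degree of freedom. The labels name separate mice.

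The genes and lists were chosen with earlier results of these data known. Named beside the 10 genes were, from each list, the genes past the threshold or else the gene with the smallest p, and the gene most like each of the 10. Cdkn1c, Ccna2, Mki67, 9330179D12Rik, genes overlapping Rb1 and single cell type markers were named outside this rule, after their values were seen. A marker gene and a list gene are not reported here, and the lists were counted without them.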

Additional observations from a re-analysis of the deposited data

Results flagged for a closer look

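In groups of 4 libraries, a library was marked where its gap to the nearest other was a larger part of the group's range than Dixon's 95% critical value. Of 74 groups examined 6 were marked, and chance marks about 1 in 20. KO mouse 1 was marked for its log2 ratio of Cdk6 to Cdk4, at 2.36 against 3.40 to 3.58 in the other KO mice. The per-length shares behind that ratio were marked with it, Cdk4 at 45.6% against 26.5% to 29% and Cdk6 at 54.4% against 71% to 73.5%, and these are 1 pattern and not 3. The CPM of Cdk6 itself in KO mouse 1 was examined by the same rule and was not marked. KO mouse 4 was marked for the per-length share of Cdkn2d among the 3 inhibitors, at 80.1% against 72.6% to 73.8%, where its Cdkn2c value rested on 30 reads. Ambra1 was marked in KO mouse 3, at 123 CPM against 86.8 to 91.2 CPM in the other KO mice, and in WT mouse 2, at 117 CPM against 67.3 to 74.8 CPM in the other WT mice.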

How the results depend on the processing

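Over 17 alternatives Cdk4, Cdk6, Cdkn2d, Rb1 and Rbl2 kept the sign of their log2 fold change. None of the 10 genes was called, except Cdk6 without KO mouse 1 (adjusted p 0.0161), so with a library left out the count of the 10 genes called ran from 0 to 1. Signs turned when a library was left out for Ccnd1 (values from -0.0453 to 0.31), Ccnd2 (-0.173 to 0.088), Ccnd3 (-0.25 to 0.345), Cdkn1b (-0.422 to 0.0804) and Cdkn2c (-0.131 to 0.288). Signs also turned for Ccnd3 with DESeq2 (-0.0336) and with a single random draw of thinned counts (-0.18), and for Cdkn2c with limma voom (-0.0287). The median over the 10 genes ran from -0.0376 to 0.11 with a library left out, the lower value without KO mouse 1. The ratio difference of Ccnd2 over Ccnd3 was 0.108 in the same draw of thinned counts and ran from -0.334 to 0.213 with a library left out, and that of Cdkn1b over Cdkn2c from -0.6 to 0.0761. In each case the cause was not tested. Thinned values differ from draw to draw, and the seed of that draw was replaced after a first draw had been seen, so 11 draws, the first seed included, were compared as an alternative chosen after seeing the data. Over these, Ccnd3 ran from -0.18 to 0.0749 (median -0.04, negative in 9), Ccnd2 over Ccnd3 from -0.162 to 0.108 (median -0.0504, positive in 2) and the median of the 10 genes from 0.00466 to 0.061. Genes called ran from 30 to 49 higher and 33 to 44 lower, 0 of the 10 genes were called in any draw, and the other 9 kept their sign.

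Over all genes, 29 were called higher and 38 lower. Without a filter there were 108 higher and 90 lower, with DESeq2 80 and 77, and with limma voom 27 and 25. With a library left out the counts ran from 14 to 33 higher and from 21 to 38 lower. Genes of the 8 lists called numbered 6 without a filter (Ccne1, Cenpe, Max, Mcm6, Mki67 and Tfdp1), 1 with DESeq2 (E2f4), and between 0 and 1 with a library left out (Cenpe, without WT mouse 4 or KO mouse 3).

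Mouse numbers gave no pairing: same-numbered KO and WT mice deviated with correlations of -0.0884 to -0.00335. With the replicate block 25 genes were called higher and 32 lower, and 0 of the 10 genes. In no mouse did a KO library correlate best with its own number. Depth limits Cdkn2c most, at 30 to 165 reads per library.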
